A study of Mus musculus with 4 samples.

Results

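The 7 genes Pdcd1, Ctla4, Lag3, Havcr2, Tigit, Cd226 and Cd96, which encode checkpoint receptors of lymphocytes and their activating partner, were followed across cells of 4T1 tumours. They were found by symbol among the 55450 genes of the deposited table, and all 7 were present in 1 row each. Their unique molecular identifiers (UMIs, the tags by which single transcript molecules are counted) were summed over barcodes with at least 300 genes and at most 15% mitochondrial UMIs. By the study's methods, tumour cells had been sorted for CD45, a marker of leucocytes, and profiled by droplet-based 10x Genomics single-cell RNA sequencing. The data went against a pure sort, since 2714 kept cells met a fibroblast gate and 1351 a tumour or epithelial gate, the latter being 17.0% of the cells of library 1. 4T1 is a single mouse mammary carcinoma line, and 1000000 cells had been placed in the right flank of each female BALB/c mouse aged 6 to 8 weeks. The mice received an intravenous injection on day 7 and 5 min of 980 nm light at 1.0 W cm-2 on each of days 8, 9 and 10, and tumours were collected on day 13. The injection was PBS for 2 samples (LC-2 and LC-5) and TIOs, a T cell-inspired oncolytic system, for 1 sample (LC-6), so the light was shared by control and treated mice. The remaining sample carries the title PBS while its protocol names TIOs, and it was left without a group. The number of mice behind a sample is not given by the sources used here.

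PD-1 (Pdcd1), CTLA-4 (Ctla4), LAG-3 (Lag3), TIM-3 (Havcr2) and TIGIT dampen lymphocyte activation once they meet their ligands on tumour or antigen-presenting cells. PD-1 recruits phosphatases to the T cell receptor complex, CTLA-4 competes with CD28 for CD80 and CD86, and LAG-3 binds class II major histocompatibility molecules. TIGIT and CD96 share the nectin family ligands with CD226, which activates T and NK cells. In tumours, T cells that meet antigen for long periods carry several of these receptors at once, regulatory T cells carry CTLA-4 constantly, and TIM-3 is also a receptor of myeloid cells.

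The barcodes carry 4 suffixes, taken as libraries 1 to 4, and the suffixes could not be matched to samples from the labels or the files. PBS was therefore not compared with TIOs, and each library is given as a sample of unknown treatment. No p-value was computed, because cells of a library are not replicates. Levels are UMIs per 1000000 UMIs of a cell group (CPM) with exact 95% Poisson intervals, and shares of cells with a UMI carry exact (Clopper-Pearson) 95% intervals. Where 0 UMIs were found, the limit stated is the one that 3 counts would give in that group. All of these cover counting error only. The libraries held 69255999 to 108646352 UMIs, and the kept cells held a median of 11698, 2641.5, 2695 and 7182 UMIs in libraries 1 to 4. Of the 32133 kept cells, 190 shared their barcode sequence with a kept cell of another library.

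Cells were gated by UMIs of marker genes, T cells first, then NK cells, then the others. A barcode mixed of a T cell and a myeloid cell was thus counted as a T cell. Of the kept cells, 10389 (32.3%) met no gate. A further 3050 (9.49%) met more than 1 of the other gates and were left out of all of them. T cells held at least 2 UMIs of Cd3d and Cd3g together, and CD8 T cells among them held Cd8a or Cd8b1 and no Cd4. Tregs held Foxp3 and no Cd8, Foxp3-negative CD4 T cells held Cd4, and NK cells held Ncr1 outside the T gate. There were 1180 T cells, of which 305 were CD8 T cells, 147 Tregs, 358 Foxp3-negative CD4 T cells, 356 T cells without Cd4 or Cd8 and 14 with both, beside 286 NK cells. Library 1 held 280 of the CD8 T cells, and libraries 2, 3 and 4 held 5, 9 and 11. Markers that the gates had not used fitted the names, since Trbc2 was found in 95.4% of CD8 T cells and in 0.430% of neutrophils, Il2ra in 78.2% of Tregs, and Gzma in 62.6% of NK cells. Yet 99 CD8 T cells (32.5%) and 118 NK cells (41.3%) also met a myeloid, B cell or non-immune gate. Of the CD8 T cells, 54.8% held Lyz2 and 23.3% held at least 5 UMIs of Epcam, Krt8 and Krt18, which are macrophage and epithelial genes. The part of such mixed barcodes in the values below was not tested beyond leaving out cells that met another gate. That step does not remove all of them, since no gate used Lyz2. The tumour or epithelial gate also required a cell without Ptprc, the gene of CD45, which 88.9% of CD8 T cells held. A low level in a group can reflect fewer transcripts in each cell or fewer positive cells, and shares are given for that reason.

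Of the genes, 6 were placed by their identifiers on GRCm38 with GENCODE vM21. Pdcd1 (ENSMUSG00000026285) lies on the minus strand of chromosome 1 from 94038305 to 94052553, and Ctla4 (ENSMUSG00000026011) lies on the plus strand of the same chromosome from 60887000 to 60915832. Lag3 (ENSMUSG00000030124) lies on chromosome 6 from 124904361 to 124911705, and Havcr2 (ENSMUSG00000020399) lies on chromosome 11 from 46454935 to 46481255. Tigit and Cd96 lie on the minus strand of chromosome 16, from 43648867 to 43664146 and from 46035657 to 46120251. No exon of these genes overlaps an exon of another gene, so reads could not be shared in that way.

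The 250 bases before the RefSeq start of Pdcd1 and Ctla4 are shown because their UMIs lay mostly in T cells, and those of Havcr2 because its UMIs lay mostly in myeloid cells. They were read from RefSeq (GRCm38.p6) in the direction of transcription, at chr1:94052554-94052803 on the minus strand, chr1:60908775-60909024 on the plus strand and chr11:46454681-46454930 on the plus strand. RefSeq starts differ from the outermost GENCODE starts given above, and the Ctla4 window lies within the longer GENCODE interval of that gene. Capitals mark the matches of motifs searched on both strands, which were the NFAT core GGAAA in Pdcd1 and Ctla4, and the AP-1 site TGANTCA and the PU.1 site GAGGAAGT in Havcr2.
Pdcd1: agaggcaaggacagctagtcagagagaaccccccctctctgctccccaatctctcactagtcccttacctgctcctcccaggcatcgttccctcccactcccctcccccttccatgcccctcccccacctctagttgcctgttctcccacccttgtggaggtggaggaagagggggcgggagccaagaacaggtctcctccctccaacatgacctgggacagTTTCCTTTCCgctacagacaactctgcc
Ctla4: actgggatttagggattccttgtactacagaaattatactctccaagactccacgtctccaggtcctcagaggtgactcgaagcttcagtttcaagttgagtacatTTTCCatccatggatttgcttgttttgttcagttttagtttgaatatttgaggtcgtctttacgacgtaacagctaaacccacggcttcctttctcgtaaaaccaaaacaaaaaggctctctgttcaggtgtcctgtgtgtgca
Havcr2: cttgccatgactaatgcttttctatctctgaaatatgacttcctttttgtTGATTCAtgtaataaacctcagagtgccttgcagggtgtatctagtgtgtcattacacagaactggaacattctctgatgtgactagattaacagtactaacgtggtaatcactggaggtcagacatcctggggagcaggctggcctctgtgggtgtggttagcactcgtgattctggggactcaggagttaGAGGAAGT
The NFAT core was found in 55.6% of 32851 promoter windows of this length, the AP-1 letters in 6.75% and the PU.1 letters in 2.44%. Counted back from the end of the window, the PU.1 match of Havcr2 began at -8, its AP-1 match at -200 and the NFAT match of Ctla4 at -144. The windows of Tigit and Cd96 held 2 and 4 NFAT matches, and the GATA letters AGATAA, found in 9.99% of windows, occurred once before Tigit. These matches describe letters and not binding.

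By where the UMIs lay, Pdcd1, Ctla4 and Cd96 were mostly T cell genes and Havcr2 was mainly a myeloid gene. Lag3 and Cd226 were spread more widely, and Tigit had too few UMIs to be placed. Such shares also depend on the number of cells in each gate and on the T gate being taken first. Cells of no gate and cells of more than 1 gate held 23.3% and 4.99% of the Havcr2 UMIs. For Lag3 these shares were 8.68% and 11.2%, and for Cd226 14.8% and 1.29%. Of 1512 Pdcd1 UMIs in all kept cells, 88.0% lay in gated T cells (86.3 to 89.6%), and of 2702 Ctla4 UMIs 86.4% did (85.0 to 87.7%). The share was 75.8% of 343 UMIs for Cd96, the CD226 relative that binds CD155. It was 46.9% of 622 UMIs for Cd226 and 38.2% of 1060 UMIs for Lag3. Of the Lag3 UMIs, pDCs held 12.5%, macrophages 12.2% and fibroblast-gated cells 8.30%. For Havcr2 the share in T cells was 4.03% of 3625 UMIs (3.41 to 4.72%), while gated myeloid and dendritic cells held 63.9% (62.4 to 65.5%). Tigit gave 57 UMIs in the whole series, each in a separate cell, of which 18 lay in T cells, 4 in NK cells, 10 in macrophages and 0 in 5816 neutrophils. Its depth was too low for any comparison between groups.

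**Figure D1:**
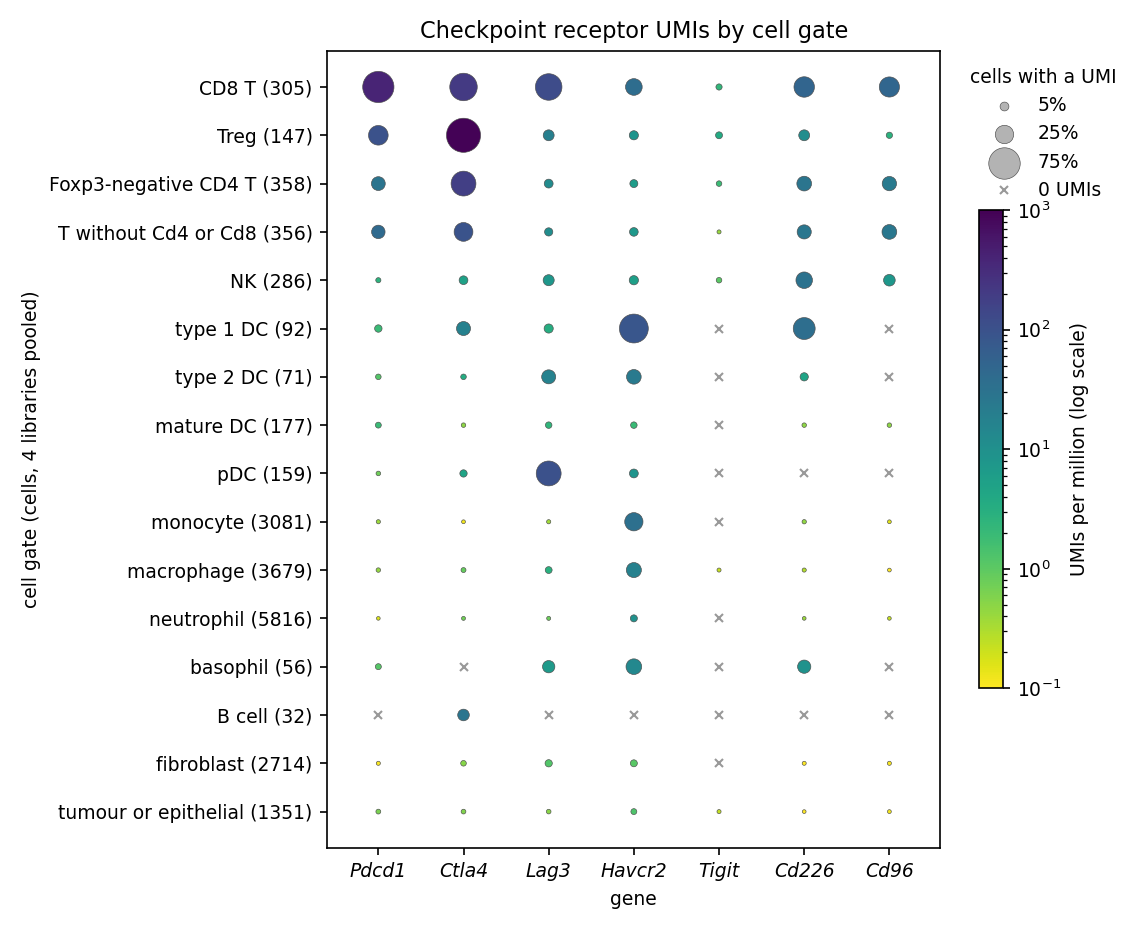
Level of each gene by cell gate over the 4 libraries pooled. Dot size is the share of cells with a UMI, colour is CPM on a log scale, crosses are gates with 0 UMIs, and the number of cells stands beside each gate. Levels should be read down a column, where Pdcd1 and Ctla4 are high in T cells, Lag3 also in pDCs, and Havcr2 in type 1 DCs, CD8 T cells and monocytes.

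Over all libraries, CD8 T cells held 66.7% of the Pdcd1 UMIs (64.2 to 69.0%), and nearly all of that signal came from library 1. There, 222 of 280 CD8 T cells held a UMI (79.3%, 74.1 to 83.9%), and the level was 426 CPM (400.2 to 454). In libraries 2, 3 and 4, 1 of 5, 1 of 9 and 2 of 11 CD8 T cells held one, which together is 16.0% (4.54 to 36.1%). The CD8 T cells of library 1 thus lay above those of the other libraries pooled beyond counting error, and library, mouse and treatment cannot be told apart. At 1000 UMIs per cell, a depth to which all cells were thinned, 41.4% of the CD8 T cells of library 1 still held a UMI (35.5 to 47.4%, 278 cells). At that depth 0.0177% of 5638 neutrophils and 0 of 284 NK cells did, the latter allowing up to 1.06%. Unthinned, 3 of 5816 neutrophils held a UMI (0.0516%) at a median of 1880 UMIs, against a median of 4910 UMIs in CD8 T cells. Pdcd1 was spread over the CD8 T cells of library 1, where the median cell held 3 UMIs, 84 cells held 5 or more, and the 28 highest cells held 31.5% of its UMIs. With cells that met another gate left out, the level in CD8 T cells over all libraries rose from 394 to 556 CPM.

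Among the other T cells, Pdcd1 was found in 12.1%, 33.3%, 38.9% and 11.1% of Tregs in libraries 1 to 4. In libraries 2, 3 and 4 the Tregs gave 13, 84 and 2 Pdcd1 UMIs, and the few CD8 T cells gave 5, 10 and 2. The 14 T cells with both Cd4 and Cd8 held it in 64.3% of cells at 190 CPM, over all libraries. The Treg level was 33.3, 33.0 and 201 CPM in libraries 1 to 3, and by counting intervals that of library 3 lay above those of libraries 1 and 2. These intervals do not cover spread between cells, and single Tregs of library 3 held up to 12 UMIs. The intervals of the shares overlapped for libraries 2 and 3 (15.6 to 55.3% and 27.6 to 51.1%). Tregs of library 2 were deeper than those of library 3, with medians of 11750.5 and 4495 UMIs. Foxp3-negative CD4 T cells held 32.0, 40.2, 19.99 and 35.3 CPM in libraries 1 to 4, a narrower range. In library 3 the Tregs exceeded the Foxp3-negative CD4 T cells 10.1-fold (6.34 to 16.6), whereas the ratios were 1.04 (0.224 to 5.24) in library 1 and 0.819 (0.372 to 1.75) in library 2. NK cells held Pdcd1 in 3 of 286 cells, and all 6 UMIs of library 1 lay in 1 cell.

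Ctla4, the receptor that competes with CD28, was found in a larger share of Tregs than of any other T cell gate in every library. It was shared with other T cells, since Tregs held 36.9% of its UMIs over all libraries, CD8 T cells 19.9% and Foxp3-negative CD4 T cells 17.9%. A UMI was found in 90.9%, 91.7%, 88.9% and 77.8% of Tregs in libraries 1 to 4, at 746 CPM (614 to 897), 892 CPM (802 to 991) and 1072 CPM (975 to 1176) in libraries 1 to 3. Foxp3-negative CD4 T cells held it at 456, 275, 156 and 125 CPM in libraries 1 to 4. Tregs were therefore higher in each library where both groups reached 20 cells, by 1.64-fold (1.18 to 2.29), 3.24-fold (2.64 to 4.00) and 6.88-fold (5.79 to 8.21) in libraries 1, 2 and 3. In CD8 T cells of library 1, Ctla4 was at 224 CPM (205 to 244) and found in 58.9% of cells, and in libraries 2, 3 and 4 it was found in 3 of 5, 4 of 9 and 2 of 11. NK cells held it at 16.1 CPM in library 1 (13 of 93 cells), 0 of 31 cells in library 3 and 1 of 150 cells in library 4. At 1000 UMIs per cell, 61.6% of Tregs, 22.8% of CD8 T cells and 17.1% of Foxp3-negative CD4 T cells held a UMI, against 0.0887% of neutrophils. Outside lymphocytes, type 1 DCs (Xcr1 and Clec9a) held Ctla4 in 13 of 92 cells, in 3, 4, 3 and 3 cells of the libraries.

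The contrast of Tregs with Foxp3-negative CD4 T cells can be read against all genes. A gene entered where both groups together held at least 20 UMIs, and it was counted where log2 of (CPM + 10) differed by 1 or more, which is 2-fold on that scale. In library 1 only Ctla4 of the 7 genes entered, and its difference of 0.70 did not pass, where 7.18% of 2117 genes were higher and 4.68% lower. In library 2, 1 of 3 members was higher (Ctla4, 1.66) and 0 lower, against 6.57% and 3.82% of 5209 genes. In library 3, 2 of 4 members were higher (Pdcd1 2.82 and Ctla4 2.71) and 1 was lower (Cd96, -2.17), against 4.86% and 6.26% of 7859 genes. Without cells of another gate, Ctla4 differed by 1.20, 1.68 and 2.71 in libraries 1 to 3, and Pdcd1 and Cd96 by 2.78 and -2.20 in library 3.

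Cd96 was not found in Tregs of 3 libraries. It gave 0 UMIs in the 24, 72 and 18 Tregs of libraries 2, 3 and 4. In library 1 it gave 3 UMIs in 33 Tregs (9.09% of cells), at 19.98 CPM beside 24.0 CPM in Foxp3-negative CD4 T cells (ratio 0.832, 0.111 to 6.21), so no difference was detectable there. Foxp3-negative CD4 T cells held it in 3 of 29, 7 of 43, 35 of 180 and 8 of 106 cells, with 42 UMIs (35.0 CPM, 25.2 to 47.3) in library 3. The 0 UMIs of the library 3 Tregs allow up to 7.19 CPM by 3 counts, and the upper bound of the exact interval of the ratio of Tregs to Foxp3-negative CD4 T cells was 0.264. In libraries 2 and 4 the limits for Tregs were 7.60 and 28.0 CPM. The Foxp3-negative CD4 T cells of library 4 stood at 11.4 CPM, below that limit, so the 0 UMIs there cannot separate the groups. CD8 T cells of library 1 held Cd96 at 54.2 CPM (45.2 to 64.5) and in 31.8% of cells, and NK cells held it at 6.28, 10.6 and 7.90 CPM in libraries 1, 3 and 4.

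Lag3, which binds class II major histocompatibility molecules, had 2 high groups, CD8 T cells and plasmacytoid DCs (pDCs, gated by Siglech). In CD8 T cells of library 1 it was found in 160 of 280 cells (57.1%, 51.1 to 63.0%) at 134 CPM (119 to 149.5), and in libraries 2, 3 and 4 in 0 of 5, 1 of 9 and 1 of 11. In pDCs it was found in 37.5%, 50.0%, 30.8% and 48.2% of the 8, 26, 13 and 112 cells of libraries 1 to 4, so every library showed it. The pDC level was 113 CPM (68.1 to 177) in library 2 and 107 CPM (87.3 to 129) in library 4, where the intervals overlapped. At 1000 UMIs per cell, 13.8% of pDCs (8.88 to 20.2%) and 14.9% of CD8 T cells (11.0 to 19.4%) held a UMI, against 0.0177% of neutrophils and 0.0326% of monocytes. Against Foxp3-negative CD4 T cells, pDCs were higher 3.34-fold (1.63 to 6.94) in library 2 and 18.8-fold (7.79 to 59.0) in library 4. On the scale with 10 CPM added, 1 of 2 and 1 of 5 members entering that contrast was higher, in both cases Lag3, against 16.0% and 10.7% of all genes. In the same contrast 1 of 2 members was lower in library 2 (Ctla4) and 3 of 5 in library 4 (Pdcd1, Ctla4 and Cd226), against 15.5% and 7.59% of genes. Macrophages held 115 Lag3 UMIs in library 1 (4.53 CPM, 3.74 to 5.44, 4.43% of 1875 cells) and 9, 0 and 5 UMIs in libraries 2 to 4. Fibroblast-gated cells, which should lack it, held it in 3.06% of cells at a median of 23772.5 UMIs.

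By where its UMIs lay, Havcr2, the gene of TIM-3, was mainly a myeloid gene here. By level, CD8 T cells of library 1 (40.9 CPM) lay above its macrophages (23.8 CPM) and neutrophils (11.7 CPM). They lay below its monocytes (92.5 CPM). Type 1 DCs held Havcr2 in 10 of 16, 21 of 31, 10 of 13 and 17 of 32 cells (62.5%, 67.7%, 76.9% and 53.1%) of libraries 1 to 4. Their level was 101 CPM (75.1 to 133) in library 2 and 68.1 CPM (48.0 to 93.9) in library 4. Monocytes (Ly6c2 and Ccr2) held 92.5, 58.4, 42.4 and 33.0 CPM in libraries 1 to 4, macrophages held 23.8, 7.31, 7.38 and 14.2 CPM, and neutrophils held 11.7, 8.62, 11.8 and 9.34 CPM. Monocytes were thus the highest of these 3 groups in each library. They exceeded neutrophils 7.88-fold, 6.77-fold, 3.59-fold and 3.53-fold, and macrophages 3.89-fold, 7.99-fold, 5.75-fold and 2.33-fold. Some of these ratios rest on few counts. In library 1 the 30 monocytes held 15 UMIs (51.8 to 153 CPM) and the neutrophils 9, and the macrophages of library 3 held 9. With 10 CPM added, Havcr2 was the only member with enough UMIs to enter the contrast with neutrophils, and it was at least 2-fold higher in all 4 libraries, where the same held for 14.4%, 5.09%, 5.44% and 2.04% of all genes. Against macrophages it passed, as 1 of 3, 1 of 1 and 1 of 1 members that entered, in libraries 1 to 3, against 4.85%, 2.59% and 2.70% of genes, and not in library 4 (0.83), where 0.894% of genes passed. Type 1 DCs were higher than monocytes by 1.73-fold (1.19 to 2.49) in library 2 and 2.07-fold (1.45 to 2.87) in library 4. Neither passed 2-fold with 10 CPM added. There, 0 of 1 member passed in library 2 and 1 of 2 in library 4, namely Cd226, against 7.37% and 3.74% of genes.

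On lymphocytes Havcr2 was found in 60 of 280 CD8 T cells of library 1 (21.4%, 16.8 to 26.7%) at 40.9 CPM (33.1 to 50.0), in 0 of 5, 1 of 9 and 1 of 11 CD8 T cells of the other libraries, and in 16 of 286 NK cells. Tumour or epithelial cells of library 1, which should lack it, held it in 1.72% of 1334 cells at a median depth of 12633 UMIs, against 4992.5 UMIs in CD8 T cells. At 1000 UMIs per cell the share in CD8 T cells of library 1 was 4.32% (2.25 to 7.42%), beside 16.7% of 30 monocytes and 2.55% of neutrophils in that library. Of the 305 CD8 T cells, 92 held at least 3 UMIs of C1qa, C1qb and C1qc, genes of macrophages. Without cells of another gate, Havcr2 stood at 55.1 CPM in the 184 remaining CD8 T cells of library 1.

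**Figure D2:**
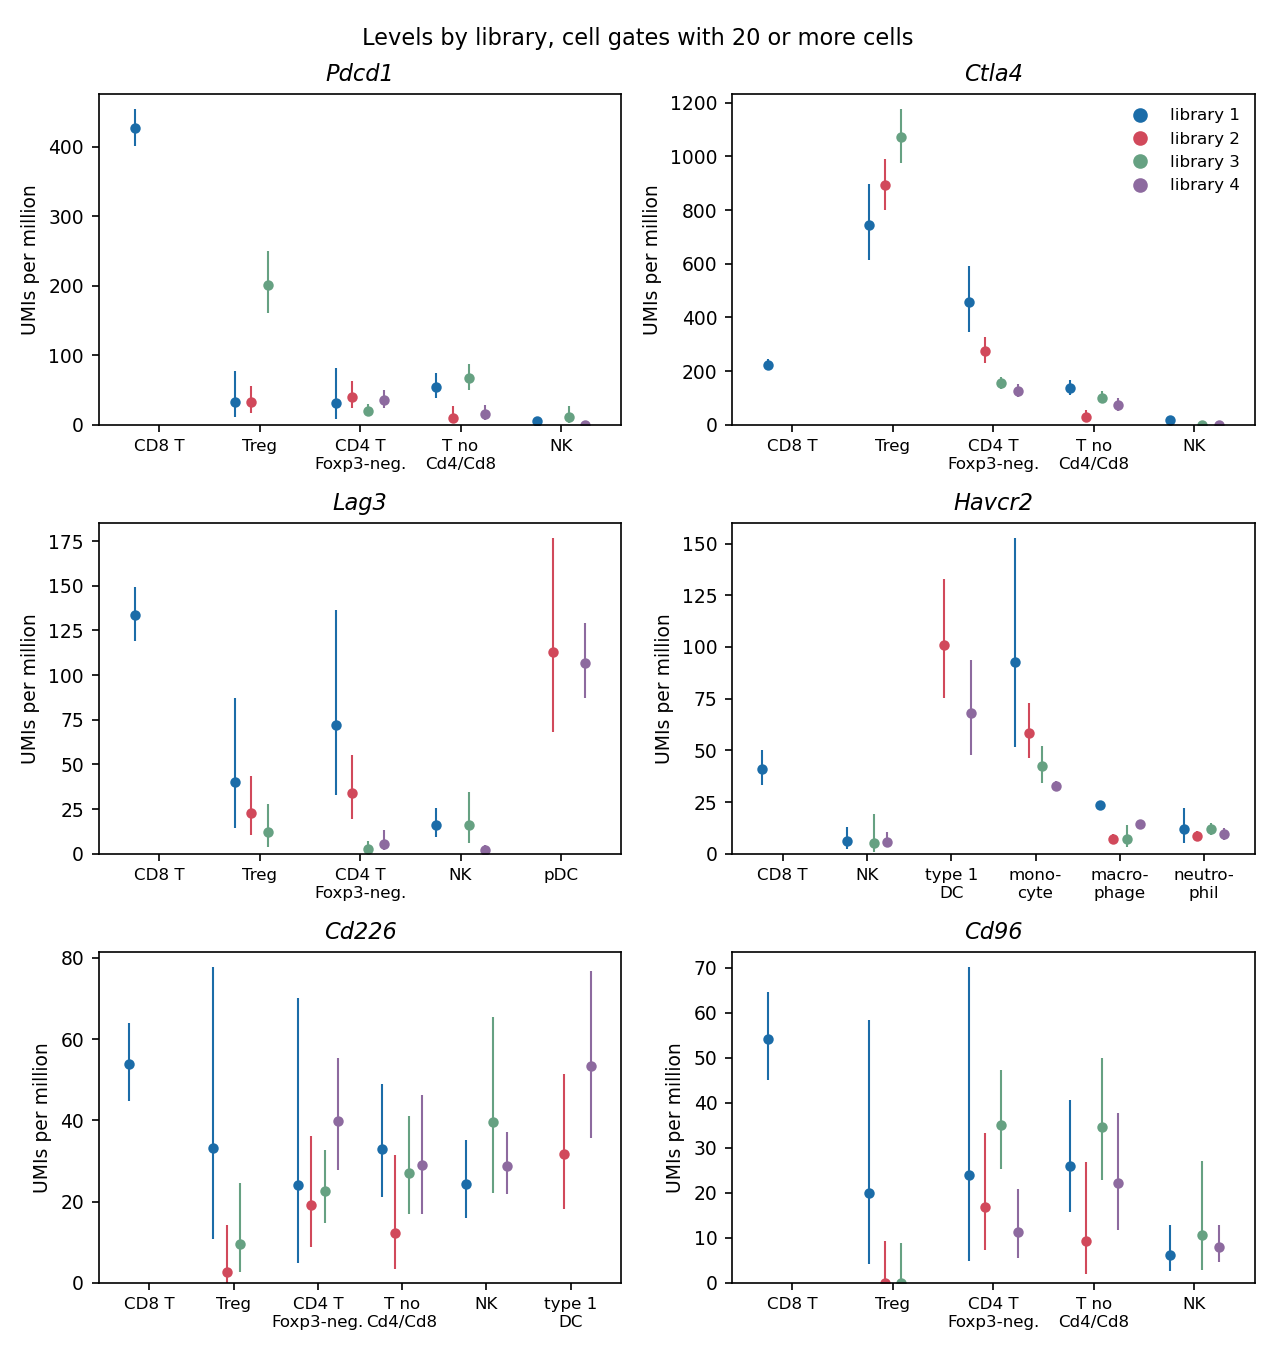
Level of 6 of the genes in CPM by cell gate and library, with exact 95% Poisson intervals. Points are drawn where a library held at least 20 cells of the gate, so CD8 T cells appear only for library 1, and the Pdcd1 panel shows the Tregs of library 3 at 201 CPM above those of libraries 1 and 2.

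Cd226, which encodes the activating partner of TIGIT and CD96, was shared by T cells, NK cells and type 1 DCs. NK cells held it in 17.2%, 41.7%, 29.0% and 18.0% of the 93, 12, 31 and 150 cells of libraries 1 to 4, at 24.2, 39.7 and 28.6 CPM in libraries 1, 3 and 4, whose intervals overlapped. CD8 T cells of library 1 held it in 31.8% of cells at 53.8 CPM (44.8 to 64.1). Foxp3-negative CD4 T cells held it at 24.0, 19.1, 22.5 and 39.8 CPM in libraries 1 to 4, and Tregs at 33.3, 2.53 and 9.59 CPM in libraries 1 to 3. The Treg levels come from 5, 1 and 4 UMIs, and their intervals overlapped (10.8 to 77.7, 0.0642 to 14.1 and 2.61 to 24.6 CPM). Type 1 DCs held it in 0 of 16, 12 of 31, 6 of 13 and 15 of 32 cells of libraries 1 to 4, at 31.7 CPM (18.1 to 51.4) in library 2 and 53.4 CPM (35.8 to 76.7) in library 4. Among the type 1 DCs no cell held Cd96 or Tigit, and pDCs held no Cd226 UMI in 159 cells, which allows a share of up to 1.89%. Type 1 DCs were the deepest of these groups with a median of 16442.5 UMIs, and at 1000 UMIs per cell 0 of 92 held Cd226. In library 4, Cd226 in type 1 DCs was 130-fold that of monocytes (64.2 to 279), which held 12 UMIs in 2597 cells.

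CD8 T cells and NK cells could be compared within library 1 only. The CD8 T cells exceeded the 93 NK cells 79.3-fold for Pdcd1 (36.3 to 216), 13.9-fold for Ctla4 (8.70 to 23.6) and 8.29-fold for Lag3 (5.16 to 14.2). The ratios were 6.51 for Havcr2 (3.04 to 16.6), 8.64 for Cd96 (4.07 to 21.9) and 2.22 for Cd226 (1.46 to 3.50). With 10 CPM added, 5 of the 6 members that entered were at least 2-fold higher, all but Cd226, where 3.20% of 9615 genes were. The 6 Pdcd1 UMIs of the NK cells lay in 1 cell. Of the 93 NK cells, 50 met another gate. Without such cells the ratios fell to 21.7 for Pdcd1 (9.92 to 59.4), 5.76 for Ctla4 (3.09 to 12.1), 3.63 for Lag3 (1.99 to 7.39) and 5.42 for Cd96 (1.79 to 26.8), and the ratio for Havcr2 was 5.52 (1.46 to 46.7). Cd226 then stood at 91.1 CPM in CD8 T cells and 105 CPM in NK cells, a ratio of 0.870 (0.537 to 1.47), so its excess in CD8 T cells was no longer seen. The same 5 of 6 members were at least 2-fold higher on the scale with 10 CPM added, where 7.57% of 6144 genes were.

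Within the T cells of library 1, CD8 T cells and Tregs split the receptors. Against 33 Tregs, CD8 T cells were 12.8-fold higher for Pdcd1 (5.47 to 39.5) and 3.35-fold for Lag3 (1.52 to 9.20), and for Ctla4 their level was 0.301 of that of Tregs (0.245 to 0.372). With 10 CPM added, 4 of 6 members were higher (Pdcd1, Lag3, Havcr2 and Cd96) and 1 was lower (Ctla4), against 9.78% and 5.01% of 8722 genes. A gene enters on the UMIs of both groups together, and these 4 entered through those of the CD8 T cells. Havcr2 gave 0 UMIs in these Tregs and 95 in the CD8 T cells, and Cd96 gave 3 and 126, so both differences rest on very few Treg UMIs. The interval of the Cd96 ratio included 1 (2.71, 0.908 to 13.3), and the lower bound for Havcr2 was 1.63. Without cells of another gate the ratio was 8.71 for Pdcd1 (3.71 to 26.9) and 0.212 for Ctla4 (0.167 to 0.271), while that of Lag3 rose to 13.4 (2.37 to 530), with 1 UMI left in 24 Tregs. Then too 4 of 6 members were higher and 1 was lower, against 15.8% and 8.41% of 5758 genes. Of these, the ratio interval of Cd96 included 1 (0.728 to 22.8), and so did that of Havcr2, with a lower bound of 0.967. Against 29 Foxp3-negative CD4 T cells, Pdcd1 was 13.3-fold higher (5.19 to 49.0) and Ctla4 was at 0.492 of their level (0.373 to 0.658). In that contrast 2 of 6 members were higher (Pdcd1 and Havcr2) and 0 were lower, where 12.7% of 8684 genes were higher and 4.00% lower. The Havcr2 value of the CD4 T cells was 1 UMI, and the interval of its ratio ran from 0.895 to 204. Without cells of another gate 5 of 6 members were higher and 0 lower, against 11.7% and 5.65% of 5827 genes. The log2 differences of Lag3, Cd226 and Cd96 then were 1.51, 1.27 and 1.123, beside 0.81, 0.91 and 0.92 with all cells. The intervals of the Cd226 and Cd96 ratios included 1 in both cases. That of Lag3 included 1 with all cells (1.86, 0.966 to 4.10) and not without cells of another gate (3.13, 1.41 to 8.63). Without these cells the ratio of Havcr2 was 5.19 (0.893 to 209), again from 1 UMI of the CD4 T cells.

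Single CD8 T cells of library 1 often held several of the 7 genes. Of 280 cells, 11 held none, 32 held 1, 73 held 2, 81 held 3, 50 held 4, 29 held 5, 3 held 6 and 1 held all 7. At least 3 genes were thus found in 164 cells (58.6%, 52.6 to 64.4%). The commonest combination was Pdcd1 with Ctla4 and Lag3 and none of the others (34 cells), followed by Pdcd1 with Lag3 (24 cells), Pdcd1 with Ctla4 (19 cells) and those 3 with Cd226 (14 cells). Co-detection depended on depth. Cells with at least 3 genes held a median of 6251 UMIs and the others 3989, and 40.9% and 25.0% of them met another gate. Thinned to 3000 UMIs, a depth chosen after the data were seen, 35.3% of 241 cells held at least 3 genes, and at 1000 UMIs 6.83% of 278 did. Among the 184 cells that met no other gate the share at their own depth was 52.7%. In libraries 2 to 4 together, 2 of 25 CD8 T cells held at least 3 genes (8.00%, 0.984 to 26.0%).

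**Figure D3:**
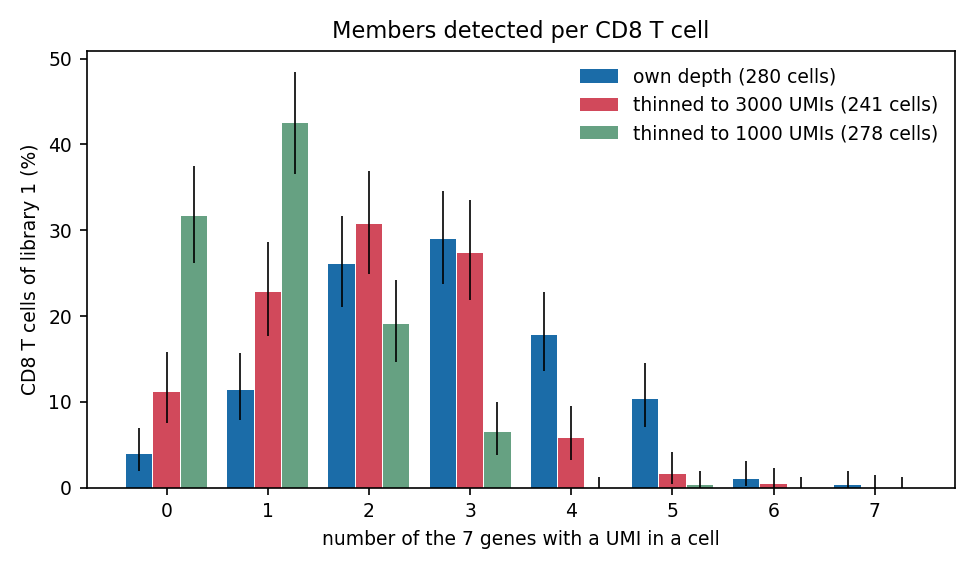
Number of the 7 genes with a UMI in each CD8 T cell of library 1, as a share of cells with exact 95% intervals, at the cells' own depth and thinned to 3000 and 1000 UMIs. The share of cells with 3 or more genes falls from 58.6% to 35.3% and 6.83% as depth is lowered.

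The number of CD8 T cells holding both genes of a pair was compared with the product of their shares. Of the 15 pairs with at least 5 cells by that product in library 1, 11 lay above it, at 0.915 to 1.47 times the product with a median of 1.09. Pdcd1 and Ctla4 were found together in 138 cells (49.3%) where the product gives 130.8, and Pdcd1 and Lag3 also in 138 where it gives 126.9. Havcr2 and Cd96 met in 28 cells where the product gives 19.1, the highest ratio of the 15. Cells that are deep hold more of every gene, so the ratios were taken again at 3000 UMIs, where 10 of 14 pairs lay above the product with a range of 0.84 to 1.29. Among cells of no other gate, 12 of 15 pairs lay above the product at their own depth, 8 of 13 at 3000 UMIs (0.677 to 1.43) and 3 of 5 at 1000 UMIs, the last with a median of 1.00. These are descriptions of cells of 1 library, and the excess of most pairs was a few cells.

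**Figure D4:**
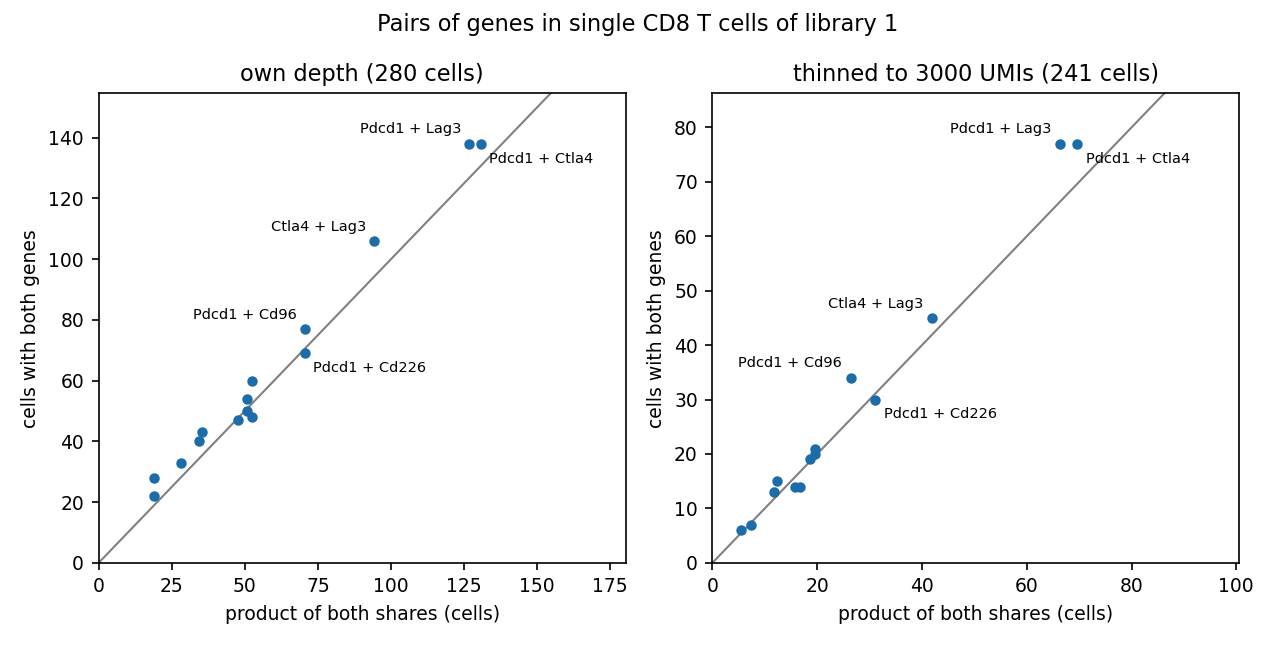
Cells holding both genes of a pair, against the number that the product of both shares gives, for CD8 T cells of library 1 at their own depth and thinned to 3000 UMIs. Each point is a pair with at least 5 cells by the product, and the line marks equality, which most points lie on or just above.

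The other receptors were then read by the number of Pdcd1 UMIs in the cell. In thinned cells with 0, 1, 2 or 3, and at least 4 Pdcd1 UMIs, Ctla4 was found in 33.3%, 42.4%, 47.6% and 53.7%, and Lag3 in 26.9%, 39.0%, 57.1% and 43.9%. Cd96 was found in 6.41%, 23.7%, 19.0% and 19.5%, and Cd226 in 20.5%, 13.6%, 23.8% and 17.1%. For Lag3, intervals of the cells with 0 and with 2 or 3 Pdcd1 UMIs did not overlap (17.5 to 38.2% and 44.0 to 69.5%). For Ctla4, Cd96 and Cd226 the intervals of these cells overlapped. With at least 4 Pdcd1 UMIs, the Lag3 interval (28.5 to 60.3%) overlapped that of the cells with 0. Before thinning to 3000 UMIs, the cells with 0, 1, 2 or 3, and at least 4 Pdcd1 UMIs held medians of 8551.5, 7018, 4632 and 4439 UMIs. The cells with fewer Pdcd1 UMIs were thus the deeper ones. Whether the receptors differ by Pdcd1, and the part of depth before thinning in these shares, were not tested. Summed over cells at their own depth, the 222 cells with a Pdcd1 UMI exceeded the 58 without one 1.499-fold for Ctla4 (1.18 to 1.93), 1.87-fold for Lag3 (1.33 to 2.69) and 1.84-fold for Cd96 (1.09 to 3.34). The ratio was 1.15 (0.679 to 2.04) for Havcr2 and 0.973 (0.63 to 1.55) for Cd226. The median depths were 5051 and 4486.5 UMIs. None of the 5 members that entered passed 2-fold with 10 CPM added, where 0.961% of 8536 genes were higher and 0.855% lower. Among cells that met no other gate, the ratio of Ctla4 was 1.16 and that of Lag3 2.06.

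**Figure D5:**
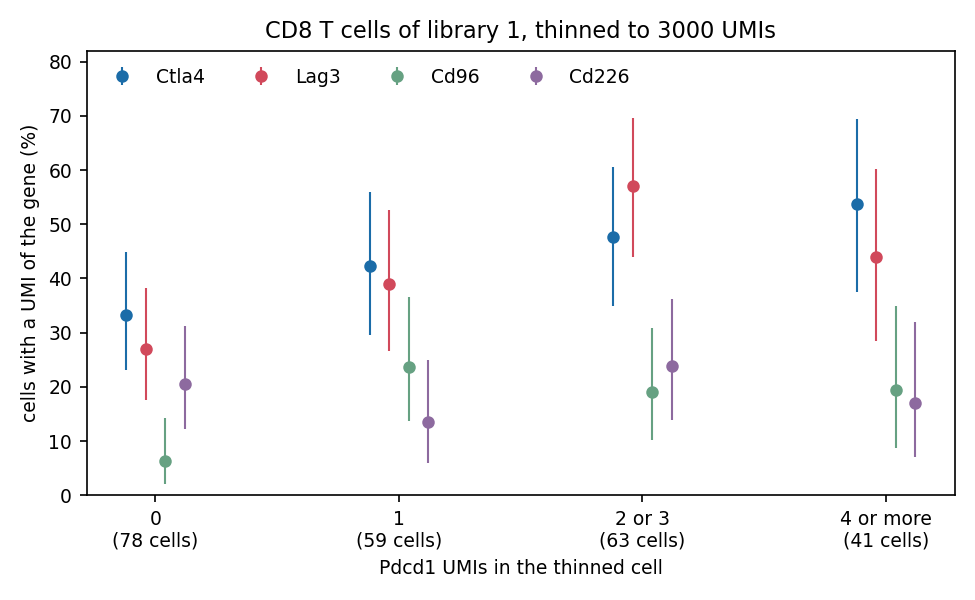
Share of CD8 T cells of library 1 with a UMI of Ctla4, Lag3, Cd96 or Cd226, by the number of Pdcd1 UMIs, in cells thinned to 3000 UMIs. Bars are exact 95% intervals, and Ctla4 stands at 33.3% in cells with no Pdcd1 UMI and 53.7% in cells with at least 4, and the intervals of both Ctla4 and Cd226 overlap throughout. Before thinning, cells with no Pdcd1 UMI held a median of 8551.5 UMIs and those with at least 4 held 4439.

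The 10 genes that differed most towards cells with Pdcd1, among genes with at least 100 UMIs in CD8 T cells and the same sign in the library with the next most such cells, were S100a9, Lin54, Rgs2, Ccl8, Ms4a4c, Gm17745, Hilpda, Rabgap1l, Rora and Slpi. That other library had only 2 cells with and 9 without Pdcd1. S100a9, a neutrophil and monocyte gene, led at 624 against 193 CPM (log2 difference 1.64), and Rgs2, a regulator of G protein signalling, stood at 893 against 366 CPM. Because myeloid genes stand among them, the values were read again in cells of no other gate, where S100a9 stood at 1225 against 270.1 CPM. That reading cannot decide on neutrophil RNA, since the neutrophil gate rests on Csf3r and Cxcr2. Of all 305 CD8 T cells, 6 held at least 2 UMIs of these, while 160 held S100a8, another neutrophil gene. The part of ambient or mixed myeloid RNA in this list was not tested.

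In the same split, genes of the surrounding pathway were read beside all genes, of which 0.961% were 2-fold higher and 0.855% lower. Of 7 costimulatory receptors all entered and 0 passed 2-fold, with a median difference of 0.49 beside 0.00 for all genes. Tnfrsf9, the gene of 4-1BB, stood at 283 against 153 CPM, and Cd27 at 153 against 97.7 CPM. Of 14 transcription factors and signalling genes that entered, 1 was higher, namely Nfatc1 (36.5 against 12.2 CPM), with a median of 0.30. Tox, a factor linked to lasting T cell stimulation, stood at 116 against 69.2 CPM. Tcf7, a factor of memory-like T cells, stood at 6.00 against 18.3 CPM, from 11 and 9 UMIs only. Of 15 effector and exhaustion-associated genes that entered, 0 were higher and 1 was lower (Tnf, 56.7 against 199.5 CPM), with a median of 0.40. Ifng stood at 702 against 393 CPM and Prf1, the gene of perforin, at 249 against 134 CPM, both short of 2-fold. Ccl5 of the same list went the other way, at 806 against 1429 CPM, also short of 2-fold. Of 8 other inhibitory receptors, 1 was higher (Cd244a, 18.5 against 2.04 CPM, the latter from 1 UMI), with a median of 0.51. Of 9 ligands 1 was higher (Pdcd1lg2, 39.8 against 8.14 CPM, the latter from 4 UMIs), with a median of -0.08.

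The same lists were read across T cell types, where more of all genes differed by 2-fold than in the split by Pdcd1. Between Tregs and Foxp3-negative CD4 T cells of library 1, 1 of 7 costimulatory receptors was higher (Cd27) and 1 lower (Cd28), where 7.18% and 4.68% of all genes were. In library 2, 2 of 7 were higher (Tnfrsf9 and Cd27) and 0 lower, with a median of 0.70, where 6.57% and 3.82% of all genes were. Between Tregs and Foxp3-negative CD4 T cells of library 3, 3 of 7 costimulatory receptors were higher in Tregs (Tnfrsf4, Tnfrsf9 and Cd27) and 1 was lower (Cd28), with a median of 0.99 beside 0.00 for all genes, of which 4.86% were higher and 6.26% lower. In library 3, Tox, Batf and Prdm1 were higher and Tcf7, Lef1 and Id3 lower among 14 transcription factors and signalling genes. In library 2, Prdm1 was higher and Tcf7, Nr4a3 and Nfatc1 lower among 14, and in library 1, 0 of 4 passed. Among 17 effector and exhaustion-associated genes of library 3, 6 were higher and 5 lower. In library 2, 5 of 12 were higher and 2 lower, and in library 1, 4 of 9 were higher and 1 lower. Klrg1 was the only other inhibitory receptor to pass, and it was higher in Tregs in libraries 1, 2 and 3. Between CD8 T and Foxp3-negative CD4 T cells of library 1, 10 of 17 effector and exhaustion-associated genes were higher in CD8 T cells, among them Ifng, Gzmb, Prf1 and Nkg7. In the same list 4 were lower (Slamf6, Ccr7, Il7r and S1pr1). Of 7 costimulatory receptors 6 were lower and 1 was higher (Cd27). Of 8 other inhibitory receptors 4 were higher (Cd160, Cd244a, Klrc1 and Lair1) and 1 was lower (Cd5). Of all genes in that contrast, 12.7% were higher and 4.00% lower.

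Ligands were read in the T cell gates other than that with both Cd4 and Cd8, and in NK cells. They were also read in monocytes, macrophages, neutrophils, type 1 DCs, pDCs and tumour or epithelial cells, and in no other gate. Among these gates, several ligands of these receptors were highest in myeloid or dendritic cells, and others in lymphocytes. Pooled over libraries, Cd274 (PD-L1) was highest of these gates in neutrophils, at 226 CPM and in 31.8% of cells. Cd86, a ligand of CTLA-4, was highest of them in type 1 DCs at 142 CPM and in 83.7% of cells. Lgals9, a ligand of TIM-3, was highest in monocytes at 273 CPM and in 79.9% of cells. Pvr, the shared ligand of TIGIT, CD96 and CD226, reached 34.9 CPM in pDCs. Fgl1, a ligand of LAG-3, gave 1 UMI in neutrophils. Of the same list, Pdcd1lg2 (46.8 CPM) and Hmgb1 (527 CPM) were highest in Tregs. Nectin2 was highest in T cells without Cd4 or Cd8 (29.7 CPM, 73 UMIs in 4.78% of cells) and Nectin3 in NK cells (20.9 CPM, 14.0% of cells). Of the cells of these gates, 20.8% and 41.3% met another gate.

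Over 40 sums of a gate and a library, the genes with the pattern most like Pdcd1, Ctla4, Havcr2, Cd226 and Cd96 were sought among 14281 genes by Pearson correlation of log2 of (CPM + 10). They were Tox (r = 0.90), Camk4 and Cd3g for Pdcd1, and Cd6 (r = 0.96), Tnfrsf4 and Trac for Ctla4. They were E230029C05Rik (r = 0.81), Arpc1b and Gpr141 for Havcr2. Cd226 was most like Ptpn22 (r = 0.84), Rinl and Sept6, and Cd96 most like Cxcr6 (r = 0.87), Abcb9 and Ms4a4b. Among the members themselves r was 0.85 for Pdcd1 with Ctla4, 0.72 for Cd226 with Cd96 and -0.13 for Ctla4 with Havcr2. The sums share libraries, depth and, for the T cell gates, the same gating genes, so these values describe likeness only.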

How the data were processed

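The authors deposited unscaled UMI counts (whole numbers; 55450 genes, 33064 barcodes), made with Cell Ranger (alignment, cell calling, UMI counting and joining of libraries). Its version is given as 6.1.2 in the matrix header, 3.0.2 in the design text and 2.1.1 in the submitters' processing notes, which name the build mm10. Whether read depth was scaled when libraries were joined is not stated by the sources used here. The filter of at least 300 genes and at most 15% mitochondrial UMIs removed 931 barcodes and left 32133, while the design text gives 15603 cells.

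Gates, sums, shares and exact intervals were computed in Python 3.11.15 (numpy 2.4.6, scipy 1.17.1, pandas 2.3.3, scanpy 1.11.5). Doublets were kept, and cells with the highest 5% of Scrublet scores were left out as an alternative. Levels needed 20 cells per gate and library, and differences used log2 of (CPM + 10) over genes with at least 20 UMIs. To compare depths, cells were thinned to 1000 UMIs without replacement, and to 3000 UMIs after seeing the data. The exclusion, within libraries, of cells that met another gate was also added after seeing the data. Genes named were the 7 members, fixed lists, 3 most alike genes per member with at least 200 UMIs, and the 10 leading genes of the Pdcd1 split. Members and lists were chosen with earlier results of these data known. Libraries were kept apart, and values given over all libraries are sums over the 4. The steps were tested on simulated data. The genes with the pattern most like Lag3 are not reported here.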

Additional observations from a re-analysis of the deposited data

How the results depend on the processing

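Of 275 alternatives to 23 cell numbers, shares and levels, 208 stayed within the counting interval of the value and 67 moved beyond it. The 20 alternatives to cell numbers, which have no interval, were instead held to a change of 1.5 times. Allowing 10% mitochondrial UMIs, 500 genes, 3 Cd3 UMIs or 2 Cd8 UMIs moved none. Leaving out T and NK cells of another gate gave 168 NK cells, shares of CD8 T cells of 48.5% for Ctla4, 47.6% for at least 3 genes and 39.3% for Pdcd1 with Ctla4, and levels of 556 CPM for Pdcd1, 168 for Lag3, 80.3 for Cd226 and 69.4 for Cd96 in CD8 T cells, 1033 for Ctla4 in Tregs and 50.2 for Cd226 in NK cells. Without the highest 5% of doublet scores, levels in CD8 T cells were 517 CPM for Pdcd1, 155 for Lag3, 65.6 for Cd226 and 67.3 for Cd96. An NK gate of 2 Ncr1 UMIs gave 70.9 CPM for Cd226.

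Counting cells from 2 UMIs, the shares of CD8 T cells were 61.0% for Pdcd1, 41.6% for Ctla4, 27.9% for Lag3, 7.54% for Havcr2, 0% for Tigit, 9.18% for Cd226, 8.20% for Cd96, 23.0% for at least 3 genes, 30.2% for Pdcd1 with Ctla4 and 19.0% for Pdcd1 with Lag3. At 1000 UMIs they were, in the same order, 38.3%, 22.8%, 14.9%, 3.96%, 0.330%, 8.25%, 7.59%, 6.27%, 10.9% and 7.92%. At 3000 UMIs, a depth added after the data were seen, the last 3 were 32.8%, 30.9% and 29.7%. At 1000 UMIs the levels were 597 CPM for Pdcd1, 185 for Lag3, 85.8 for Cd226 and 85.8 for Cd96 in CD8 T cells, 1164 for Ctla4 in Tregs, 164 for Lag3 in pDCs, 45.6 and 65.2 for Havcr2 in monocytes and type 1 DCs, and 70.4 and 0 for Cd226 in NK cells and type 1 DCs. Thinning weights cells equally, whereas the main levels weight deep cells more.

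Leaving out each library in turn, CD8 T cells numbered 25 to 300 and NK cells 136 to 274. The shares of CD8 T cells ranged from 16% to 76.2% for Pdcd1, 36% to 58.5% for Ctla4, 8% to 54.8% for Lag3, 8% to 20.7% for Havcr2, 0% to 2.04% for Tigit, 24% to 31.4% for Cd226, 12% to 31.0% for Cd96, 8% to 56.1% for at least 3 genes, 12% to 47.6% for Pdcd1 with Ctla4 and 0% to 46.9% for Pdcd1 with Lag3. The levels in CD8 T cells ranged from 72.0 to 418 CPM for Pdcd1, 17.0 to 130.0 for Lag3, 0 to 2.49 for Tigit, 33.9 to 53.6 for Cd226 and 12.7 to 53.2 for Cd96, and library 1 set each of these minima. The other levels ranged from 844 to 963 CPM for Ctla4 in Tregs, 88.1 to 105 for Lag3 in pDCs, 34.0 to 50.4 and 77.4 to 94.3 for Havcr2 in monocytes and type 1 DCs, and 28.4 to 34.6 and 28.1 to 43.4 for Cd226 in NK cells and type 1 DCs. No paired analysis was possible because libraries could not be linked to samples.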

Other observations

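Receptors outside the 7 genes also differed between gates, pooled over the libraries and given without a test. Btla, an inhibitory receptor that binds HVEM, was found in 87.0% of type 1 DCs at 174 CPM and in 41.5% of pDCs at 69.0 CPM. Lair1, an inhibitory collagen receptor, was found in 92.5% of pDCs at 563 CPM, against 63.7 CPM in monocytes and 83.3 CPM in macrophages. Vsir, the gene of VISTA, was found in 76.4% of monocytes at 185 CPM and in 31.1% of CD8 T cells at 50.8 CPM. Klrc1, the gene of the inhibitory receptor NKG2A, was found in 61.6% of CD8 T cells at 159 CPM and in 31.8% of NK cells at 51.2 CPM. Klrg1 stood at 154 CPM in Tregs, in 42.2% of cells.

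Costimulatory receptors of the TNF receptor family were highest in Tregs among the T and NK cell gates, leaving aside T cells with both Cd4 and Cd8. In Tregs, Tnfrsf9 stood at 1015 CPM, Tnfrsf4 at 902 CPM and Tnfrsf18 at 681 CPM. In CD8 T cells they stood at 241, 85.5 and 155 CPM. Icos stood at 836 CPM in Tregs and 128 CPM in CD8 T cells, and Cd28 was, among the same gates, highest in Foxp3-negative CD4 T cells at 511 CPM, against 223 CPM in CD8 T cells.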
